A study of Rattus norvegicus with 93 samples.

Results

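The glutathione and thioredoxin systems are the 2 chains of thiol enzymes that pass electrons from NADPH to peroxides and oxidized proteins. Glutathione is also joined to reactive drugs by transferases. Genes of both systems were taken as the probe sets with 1 annotated symbol that begins with Gsta, Gstk, Gstm, Gsto, Gstp, Gstt, Gstz, Mgst, Gpx, Gclc, Gclm, Gss, Gsr, Ggt, Ggct, Glrx, Prdx, Txn or Srxn1, and where a gene had several such probe sets, the one with the highest mean signal across all 93 arrays was kept. This gave 47 genes of 7810 with a symbol of their own. RefSeq lists 83 protein-coding rat genes whose symbols match, and the others were not analysed here. The probe set of Prdx1 was left out because it also carries the symbol of Prdx1l1. The table had been restricted by the authors to probe sets whose probes vary together, so the 47 are genes that passed this filter. The symbols also brought in Ggta1, which makes a galactose sugar epitope, and Txnl4a, a splicing factor, and neither acts in these systems.

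Marrow of the left femur was measured in 93 male Sprague-Dawley rats of 8 weeks, 1 array per rat, at 1, 6 or 24 h after 2 intravenous infusions of 30 min each, set 30 min apart. The drugs were topotecan at 4.7 mg/kg, which traps topoisomerase I on DNA, and oxaliplatin at 15 mg/kg, whose platinum forms adducts and cross-links in DNA. The infusions were topotecan and then D5W, D5W and then topotecan, oxaliplatin and then NaCl, NaCl and then oxaliplatin, topotecan and then oxaliplatin, or oxaliplatin and then topotecan, and the vehicle groups received NaCl and then D5W or D5W and then NaCl, where D5W is dextrose in water and NaCl is saline. Groups are written first infusion/second infusion, and the groups whose vehicle is NaCl/D5W made up the first fit, those whose vehicle is D5W/NaCl the second. Each group held 4 rats at each time, with 3 in topotecan/D5W at 24 h, oxaliplatin/NaCl at 6 h and D5W/NaCl at 24 h. Values are log2 signals, in which 1 unit is a doubling, and a log2 change is the mean of a treatment minus the mean of the vehicle group with the same order and time. A member was called changed at a limma adjusted p under 0.01 over all 12532 probe sets, with no minimum fold.

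Array medians lay between 8.79 and 9.30. Markers of marrow were present: granulocyte markers averaged 12.23 to 13.11 in all arrays and erythroid markers 11.77 to 12.28 in vehicle marrow. Skeletal muscle markers averaged above 7 on 8 arrays, all of treated rats, against at most 6.60 in vehicle rats, and the counts of members without these 8 arrays stayed within 1.5 times. Samples carry a code that names a numbered column. At 1 and 6 h the vehicle rats shared code columns with topotecan/D5W and oxaliplatin/NaCl only, and at 24 h the D5W/NaCl rats shared none with D5W/topotecan or oxaliplatin/topotecan, so that column and treatment cannot be told apart in the comparisons without a shared column. In marrow as a bulk sample, fewer cells of a type and less RNA per cell cannot be told apart.

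As background, glutathione is made from glutamate, cysteine and glycine, and its first and rate-limiting step is run by glutamate-cysteine ligase. Glutathione peroxidases and transferases spend it on peroxides and electrophiles, while thioredoxin, kept reduced by thioredoxin reductase, serves peroxiredoxins, which remove peroxides and are abundant in red cells. Many of these genes are targets of the transcription factor NRF2, which binds the antioxidant response element, and of the erythroid programme that arms haemoglobin-making cells against oxidants.

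Promoter windows of 250 bases before to 50 after the start, from RefSeq for GRCr8, were found for 40 of the 47 members (46 windows). They were searched on both strands for the core of the antioxidant response element, TGACNNNGC, and for AGATAA, a spelling of the GATA motif. Since AGATAA had no match no overlap arose. The antioxidant core stood in windows of 10 members (Gclm, Gsta1, Gstm5, Gstp1, Prdx4, Prdx5, Txndc11, Txndc17, Txndc5 and Txnrd1) and in 12.1% of all 33465 windows. A member counted when any of its windows matched, so this count and this percentage are in unlike units. AGATAA stood in 0 member windows and in 11.6% of all. Other spellings of the GATA motif were not searched, such as AGATAG, which the Mgst3 window printed below holds. A match is a run of letters and not a measured binding site, and no match says only that the letters are not in the window. The 250 bases before the start are printed for 3 genes that the results below turn on: Mgst3, the member of largest fall (chr13:82080296-82080545, minus strand), Gclm, which fell (chr2:213031885-213032134, plus strand), and Gstp1, which rose (chr1:210769706-210769955, minus strand). The start is that of the first window listed for the gene. The annotated span of Gstp1 covers all of its printed stretch and that of Mgst3 a part. Capitals mark the antioxidant core, which Gclm holds on the opposite strand at -172 to -164 and Gstp1 on the printed strand at -61 to -53 from the start. Mgst3 holds no match to this core or to AGATAA.
Mgst3: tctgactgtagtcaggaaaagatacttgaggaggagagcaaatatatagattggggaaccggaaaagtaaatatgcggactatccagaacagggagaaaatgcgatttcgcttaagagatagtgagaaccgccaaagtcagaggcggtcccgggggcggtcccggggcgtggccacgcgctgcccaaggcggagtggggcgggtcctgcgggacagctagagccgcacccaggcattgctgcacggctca
Gclm: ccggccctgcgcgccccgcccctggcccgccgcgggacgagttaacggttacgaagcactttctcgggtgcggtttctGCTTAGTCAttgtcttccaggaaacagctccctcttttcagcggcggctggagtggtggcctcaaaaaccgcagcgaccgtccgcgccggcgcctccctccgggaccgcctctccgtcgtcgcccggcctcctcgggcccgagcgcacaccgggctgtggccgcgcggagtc
Gstp1: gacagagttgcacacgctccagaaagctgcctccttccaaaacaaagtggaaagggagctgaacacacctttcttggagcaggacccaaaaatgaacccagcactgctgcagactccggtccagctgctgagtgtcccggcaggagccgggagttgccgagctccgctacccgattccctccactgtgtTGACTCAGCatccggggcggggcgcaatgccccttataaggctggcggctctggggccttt

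No member passed the test at 1 h after oxaliplatin alone, and at 24 h 22 to 30 of the 47 passed in each treatment. At 1 h 5 members rose and 9 fell in topotecan/D5W marrow (9.18% and 26% of all probe sets), and 3 members rose and 1 fell in D5W/topotecan marrow (7.67% and 19.5% of all probe sets). After the combinations, 5 members rose and 11 fell in topotecan/oxaliplatin marrow (9.77% and 32.9% of all probe sets), and 5 members rose and 3 fell in oxaliplatin/topotecan marrow (7.21% and 27.6% of all probe sets). After oxaliplatin alone, 0 members rose and 0 fell in oxaliplatin/NaCl marrow (0.575% and 0.654% of all probe sets), with 6 members at an unadjusted p under 0.05, and 0 members rose and 0 fell in NaCl/oxaliplatin marrow (0.136% and 0.0239% of all probe sets), with 3. As shares of the 47, the falls lay below those of all probe sets in the 4 treatments with topotecan. The balance at 1 h moved with the scaling. After quantile normalization of the arrays, which shifted the median change of all probe sets in topotecan/oxaliplatin to 0.01, against -0.14 as deposited, 6 members rose and 7 fell there, 5 rose and 5 fell in topotecan/D5W, and 10 rose and 2 fell in oxaliplatin/topotecan.

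At 6 h 9 members rose and 12 fell in topotecan/D5W marrow (15.1% and 25.6% of all probe sets), 7 members rose and 8 fell in D5W/topotecan marrow (14.1% and 20.4% of all probe sets), 1 member rose and 6 fell in oxaliplatin/NaCl marrow (3.78% and 7.25% of all probe sets), and 5 members rose and 5 fell in NaCl/oxaliplatin marrow (5.54% and 9.69% of all probe sets). The combinations gave more calls than oxaliplatin alone: 12 members rose and 11 fell in topotecan/oxaliplatin marrow (17% and 27.6% of all probe sets), and 11 members rose and 11 fell in oxaliplatin/topotecan marrow (14.2% and 27.5% of all probe sets). The calls of NaCl/oxaliplatin numbered 5, against 10 here, when the sample code column entered as a random block, and 5 to 10 without single rats (5 without NaCl/D5W animal 3 or animal 4, 6 without NaCl/oxaliplatin animal 76). Of the 47 members, 4 fell in each of the 6 treatments at 6 h, namely Mgst3, Prdx4, Glrx2 and Gstm5 (5.23% of all probe sets did), and 1 rose in each, Gstp1 (2.08% of all).

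At 24 h 11 members rose and 13 fell in topotecan/D5W marrow (16.1% and 17.3% of all probe sets), 9 members rose and 13 fell in D5W/topotecan marrow (18.1% and 18.3% of all probe sets), 9 members rose and 14 fell in oxaliplatin/NaCl marrow (19.6% and 26.4% of all probe sets), and 13 members rose and 16 fell in NaCl/oxaliplatin marrow (24.9% and 30.2% of all probe sets). In the combinations, 13 members rose and 17 fell in topotecan/oxaliplatin marrow (25.9% and 35.2% of all probe sets), and 11 members rose and 19 fell in oxaliplatin/topotecan marrow (21.8% and 33.3% of all probe sets). After quantile normalization, 11 members rose and 11 fell in oxaliplatin/NaCl. In each of the 6 treatments 9 members fell (12.2% of all probe sets did): Mgst3, Gsta4, Gclc, Gclm, Prdx3, Prdx4, Glrx5, Prdx2 and Txnrd2. Another 6 rose in each (9.75% of all): Gpx7, Gpx8, Gsta1, Gstm2, Gstp1 and Gstm4. The counts at 6 h, read as shares of the 47, lay on both sides of the shares of all probe sets. At 24 h they lay above those shares, several by little, except for the rises in oxaliplatin/NaCl, which lay just below. These gaps were not tested. Counted over all treatments, the members called numbered 18 at 1 h, 28 at 6 h, 37 at 24 h and 45 at some time. The shares over all probe sets were 57.8% after 1 h, 58.6% after 6 h, 75.9% after 24 h and 93.1% over the 3 times, so that being called at some time is no result about the members. Txn1 (cytosolic thioredoxin) and Gpx4 (the peroxidase of membrane lipids) were never called, with log2 changes between -0.27 and 0.19 and SE of at most 0.10.

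**Figure D1:**
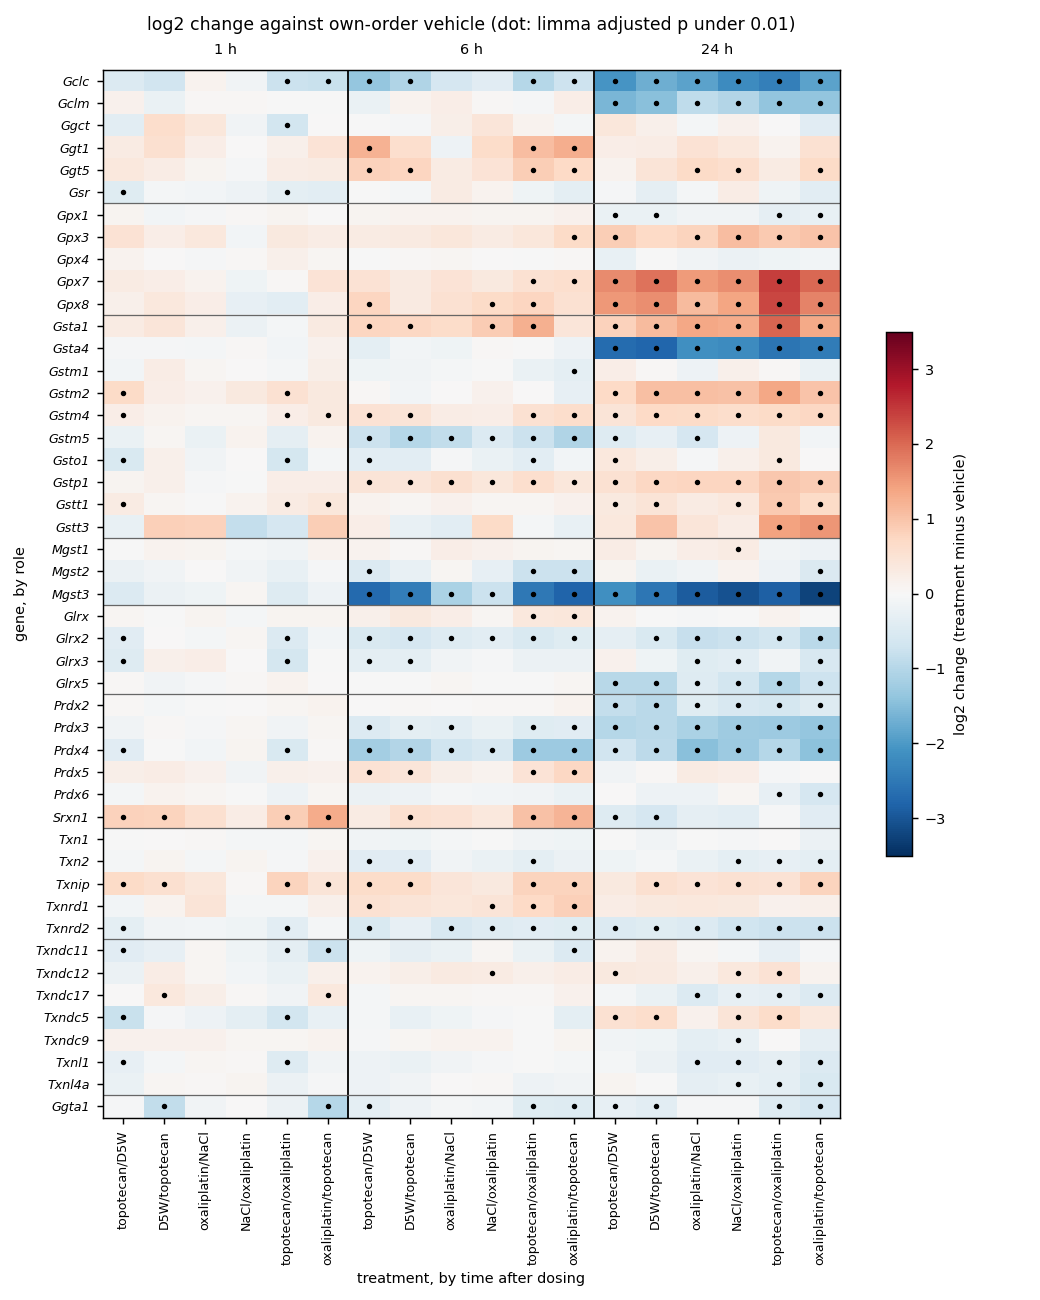
Log2 change of the 47 members (rows, by role from glutathione synthesis at the top to thioredoxin domain proteins, with Ggta1 last) in the 6 treatments at 1, 6 and 24 h (columns), each against the vehicle group of its order. Red is higher and blue lower in treated rats, dots mark limma adjusted p under 0.01, and the darkest blue at 24 h is Mgst3 at -3.25 in oxaliplatin/topotecan.

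Both subunits of glutamate-cysteine ligase, the enzyme that starts glutathione synthesis, fell in every treatment at 24 h. The catalytic subunit Gclc had log2 signals of 8.63, 9.32 and 8.92 in topotecan/D5W rats, 8.94, 8.80, 8.97 and 8.60 in NaCl/oxaliplatin rats and 8.80, 8.34, 8.58 and 8.75 in topotecan/oxaliplatin rats, against 10.99, 11.05, 10.79 and 11.24 in NaCl/D5W rats. In the other order it had 8.61, 8.78, 8.78 and 8.88 in D5W/topotecan rats, 8.42, 8.42, 8.81 and 8.74 in oxaliplatin/NaCl rats and 8.45, 8.43, 8.75 and 8.75 in oxaliplatin/topotecan rats, against 10.16, 11.06 and 10.20 in D5W/NaCl rats. No treated rat reached the lowest vehicle rat. The log2 change of Gclc lay between -1.71 (SE 0.23) in D5W/topotecan and -2.40 (SE 0.25) in topotecan/oxaliplatin (limma adjusted p 5.23e-11 to 7.49e-08). A second probe set of Gclc fell in all 6 treatments too, with its lowest change at -2.55 in topotecan/oxaliplatin. Gclc was already lower at 6 h in the 4 treatments with topotecan, between -0.72 (SE 0.21) in oxaliplatin/topotecan and -1.34 (SE 0.25) in topotecan/D5W, and at 1 h in both combinations (-0.75 in topotecan/oxaliplatin and -0.77 in oxaliplatin/topotecan), where the second probe set passed in oxaliplatin/topotecan only (-0.94, with -0.68 and a limma adjusted p of 0.0329 in topotecan/oxaliplatin). With oxaliplatin alone its change at 6 h did not pass the test, at -0.59 in oxaliplatin/NaCl and -0.41 in NaCl/oxaliplatin. The direct difference topotecan/D5W minus NaCl/oxaliplatin at 6 h was -0.92 (SE 0.25, limma adjusted p = 0.00485).

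The modifier subunit Gclm, which raises the activity of the ligase, moved later. At 24 h Gclm had 9.20, 9.46 and 9.32 in topotecan/D5W rats, 9.91, 10.08, 9.98 and 9.60 in NaCl/oxaliplatin rats and 9.56, 9.43, 9.44 and 9.75 in topotecan/oxaliplatin rats, against 10.97, 10.96, 11.03 and 10.71 in NaCl/D5W rats. With the second order of infusion it had 9.84, 9.24, 9.12 and 9.16 in D5W/topotecan rats, 9.81, 9.65, 10.22 and 9.92 in oxaliplatin/NaCl rats and 9.36, 9.70, 9.30 and 9.33 in oxaliplatin/topotecan rats, against 10.58, 11.04 and 10.78 in D5W/NaCl rats. Treated and vehicle rats did not overlap. Its log2 change was between -0.90 (SE 0.17) in oxaliplatin/NaCl and -1.59 (SE 0.11) in topotecan/D5W (limma adjusted p 9.11e-15 to 2.28e-05), and at 1 and 6 h Gclm was called in no treatment, with changes between -0.23 and 0.23. Gclm was lower after topotecan alone than after oxaliplatin alone at 24 h, with differences of -0.56 (SE 0.11, limma adjusted p = 0.000134) for topotecan/D5W minus NaCl/oxaliplatin and -0.56 (SE 0.15, limma adjusted p = 0.00975) for D5W/topotecan minus oxaliplatin/NaCl.

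At 24 h the genes that break down or recycle glutathione moved less than Gclc and Gclm. Ggt1, a surface enzyme that cleaves extracellular glutathione, rose at 6 h by 1.22 in topotecan/D5W, 1.08 in topotecan/oxaliplatin and 1.26 in oxaliplatin/topotecan (SE 0.24 to 0.25), and was not called at 1 or 24 h. Its relative Ggt5 rose at 6 h in the 4 treatments with topotecan, between 0.69 (SE 0.14) in oxaliplatin/topotecan and 0.85 (SE 0.17) in topotecan/oxaliplatin, and at 24 h in oxaliplatin/NaCl, NaCl/oxaliplatin and oxaliplatin/topotecan by 0.60 to 0.67. Gsr, which reduces oxidized glutathione with NADPH, fell at 1 h only, by 0.42 in topotecan/D5W and 0.34 in topotecan/oxaliplatin. Ggct, which takes apart gamma-glutamyl peptides, fell once, by 0.65 in topotecan/oxaliplatin at 1 h.

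Of the 5 glutathione peroxidases, Gpx7 and Gpx8, which work in the endoplasmic reticulum beside the folding of secreted proteins, rose most. At 24 h Gpx7 had 9.26, 8.11 and 8.35 in topotecan/D5W rats, 8.89, 8.54, 8.25 and 8.45 in NaCl/oxaliplatin rats and 9.02, 9.23, 9.50 and 9.54 in topotecan/oxaliplatin rats, against 7.04, 7.13, 6.74 and 6.73 in NaCl/D5W rats. After the reversed infusions Gpx7 had 8.45, 9.24, 9.17 and 9.06 in D5W/topotecan rats, 8.77, 8.95, 8.47 and 8.08 in oxaliplatin/NaCl rats and 9.01, 9.22, 9.13 and 9.02 in oxaliplatin/topotecan rats, against 7.05, 6.87 and 7.29 in D5W/NaCl rats. Every treated rat stood above every vehicle rat. The log2 change of Gpx7 was between 1.50 (SE 0.20) in oxaliplatin/NaCl and 2.41 (SE 0.17) in topotecan/oxaliplatin (limma adjusted p 6.03e-15 to 7.72e-08).

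Gpx8 had 10.50, 9.48 and 9.51 in topotecan/D5W rats, 9.95, 9.50, 9.63 and 9.67 in NaCl/oxaliplatin rats and 10.66, 10.65, 10.67 and 10.63 in topotecan/oxaliplatin rats, against 8.17, 8.28, 8.34 and 8.46 in NaCl/D5W rats at 24 h. The rats of the other order had 9.55, 10.40, 10.66 and 10.47 in D5W/topotecan rats, 9.93, 9.79, 9.65 and 9.69 in oxaliplatin/NaCl rats and 10.25, 10.31, 10.41 and 10.59 in oxaliplatin/topotecan rats, against 8.22, 8.66 and 9.08 in D5W/NaCl rats. Again no treated rat overlapped its vehicle group, and the log2 change was between 1.11 (SE 0.19) in oxaliplatin/NaCl and 2.34 (SE 0.15) in topotecan/oxaliplatin (limma adjusted p 1.4e-16 to 6.41e-06). At 6 h Gpx8 had risen in topotecan/D5W, NaCl/oxaliplatin and topotecan/oxaliplatin by 0.67 to 0.76, and Gpx7 in both combinations by 0.54 and 0.60.

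Gpx3, the secreted plasma peroxidase, rose at 24 h in 5 treatments by 0.77 to 1.07, and its change in D5W/topotecan was 0.69 (SE 0.23). Gpx1, the main cytosolic form and an abundant enzyme of red cells, fell by 0.23 to 0.31 in the 4 treatments with topotecan at 24 h and was not called after oxaliplatin alone (-0.11 in oxaliplatin/NaCl and -0.11 in NaCl/oxaliplatin). At 6 h Gpx1 was called in no treatment, though every treated rat (14.52 to 14.67) lay above every vehicle rat (14.42 to 14.51). The 2 peroxidases of the endoplasmic reticulum, the transferases Gsta1 and Gstm2, and the markers of stroma and bone rose in the same samples: at 24 h 13 to 18 of 20 stromal and osteoblast markers rose in each treatment, and their mean ran between 10.01 and 10.91 in treated rats, against 9.06 to 9.34 in vehicle rats. Adipocyte markers averaged 10.74 to 11.94 in treated rats and 9.36 to 10.14 in vehicle rats, with 4 or 5 of 5 higher in each treatment. At 24 h, when 16.1% to 25.9% of all probe sets rose, 8 to 10 of 12 T and NK cell markers were higher in each treatment. Each combination had 1 of these 12 lower. Macrophage markers were higher in 10 to 12 of 12, and megakaryocyte markers in 0 to 8 of 8. The part of these cells in the rise of the 4 genes was not tested.

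The cytosolic glutathione S-transferases, which join glutathione to electrophiles, numbered 10. At 24 h 4 to 7 of them rose in each treatment, where 16.1% to 25.9% of all probe sets rose, and 1 or 2 fell, where 17.3% to 35.2% of all fell. Gsta4, which clears the lipid aldehyde 4-hydroxynonenal, was called in no treatment at 1 or 6 h and had the second largest mean fall at 24 h. Its signals at 24 h were 8.51, 8.86 and 8.22 in topotecan/D5W rats, 9.14, 9.12, 9.19 and 8.64 in NaCl/oxaliplatin rats and 9.00, 8.79, 8.06 and 8.79 in topotecan/oxaliplatin rats, against 11.16, 11.12, 11.29 and 11.35 in NaCl/D5W rats. For the other order Gsta4 had 8.66, 8.64, 7.86 and 8.54 in D5W/topotecan rats, 8.92, 9.16, 9.19 and 8.97 in oxaliplatin/NaCl rats and 8.52, 8.99, 8.83 and 8.68 in oxaliplatin/topotecan rats, against 10.66, 11.34 and 11.61 in D5W/NaCl rats. Treated rats lay below every vehicle rat, and the log2 change was between -2.14 (SE 0.18) in oxaliplatin/NaCl and -2.78 (SE 0.18) in D5W/topotecan (limma adjusted p 7.17e-17 to 4.46e-12). At 6 h its changes lay between -0.35 and 0.03. D5W/topotecan minus oxaliplatin/NaCl at 24 h was -0.63 (SE 0.17, limma adjusted p = 0.00741), while topotecan/D5W minus NaCl/oxaliplatin was not called at -0.50.

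Gsta1, an alpha class transferase, rose instead. Its 24 h signals were 9.15, 8.34 and 9.03 in topotecan/D5W rats, 9.32, 9.33, 9.15 and 9.55 in NaCl/oxaliplatin rats and 9.92, 10.00, 10.27 and 10.05 in topotecan/oxaliplatin rats, against 8.10, 7.75, 8.16 and 8.09 in NaCl/D5W rats. The animals given the other order had 8.43, 9.11, 10.02 and 9.44 in D5W/topotecan rats, 9.62, 9.59, 9.46 and 9.40 in oxaliplatin/NaCl rats and 9.55, 9.69, 9.31 and 9.38 in oxaliplatin/topotecan rats, against 7.98, 7.64 and 8.84 in D5W/NaCl rats. The groups did not overlap except for D5W/topotecan, whose lowest rat at 8.43 lay under the highest D5W/NaCl rat at 8.84. The log2 change was between 0.81 (SE 0.18) in topotecan/D5W and 2.03 (SE 0.16) in topotecan/oxaliplatin (limma adjusted p 8.99e-14 to 0.000288), and 4 treatments had risen at 6 h, by 0.73 to 1.24. Alpha and mu class genes have close copies whose probes may share signal. The study's authors list the probe set used here for Gsta1 under the symbol Gsta3.

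Gstm2, a mu class transferase, was highest at 24 h in topotecan/oxaliplatin. At 24 h it had 7.26, 6.61 and 6.36 in topotecan/D5W rats, 6.87, 7.03, 7.28 and 7.08 in NaCl/oxaliplatin rats and 6.97, 7.13, 7.90 and 7.51 in topotecan/oxaliplatin rats, against 6.02, 6.10, 5.99 and 6.02 in NaCl/D5W rats. In the other fit Gstm2 had 6.54, 6.80, 7.33 and 7.48 in D5W/topotecan rats, 6.91, 7.15, 6.86 and 7.14 in oxaliplatin/NaCl rats and 6.94, 6.86, 7.06 and 7.08 in oxaliplatin/topotecan rats, against 5.84, 6.09 and 6.00 in D5W/NaCl rats. All treated rats were above all vehicle rats. The log2 change was between 0.71 (SE 0.17) in topotecan/D5W and 1.34 (SE 0.16) in topotecan/oxaliplatin (limma adjusted p 1.19e-09 to 0.000706). Without 1 topotecan/D5W rat (signal 7.26) the change there was 0.45 and no longer called. At 1 h Gstm4 and Gstt1 were called higher in topotecan/D5W and both combinations, and Gstm2 in topotecan/D5W and topotecan/oxaliplatin. At 6 h Gstm4 was called higher in the 4 treatments with topotecan. Gstm4 rose at 24 h in all 6 treatments by 0.46 to 0.73, and Gstp1, the pi class transferase, by 0.53 to 0.94. Gstp1 had already risen in all 6 at 6 h, by 0.39 to 0.60. Gstm5 ran the other way and early: at 6 h its signals were 8.55, 8.50, 8.16 and 8.23 in topotecan/D5W rats and 8.28, 8.01, 8.31 and 8.16 in D5W/topotecan rats, against 9.11, 9.19, 8.95 and 9.21 in NaCl/D5W rats and 9.33, 9.34, 9.02 and 9.06 in D5W/NaCl rats. It fell in all 6 treatments at 6 h, between -0.47 (SE 0.13) in NaCl/oxaliplatin and -1.05 (SE 0.16) in oxaliplatin/topotecan, and at 24 h it was still lower in topotecan/D5W (-0.46) and oxaliplatin/NaCl (-0.59) but not called in the others (0.34 in topotecan/oxaliplatin). Gstt1 rose at 24 h in 5 treatments by 0.34 to 0.91, and Gstt3 in both combinations by 1.41 and 1.54 (SE 0.40 and 0.37). Gsto1 fell at 1 h in topotecan/D5W and topotecan/oxaliplatin by 0.52 and 0.61 and rose in the same treatments at 24 h by 0.37 and 0.33. Gstm1 was called once, at -0.34 in oxaliplatin/topotecan at 6 h.

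Mgst3, a microsomal transferase and peroxidase of the membrane, had the largest fall of all members, and its timing differed between the drugs. At 1 h it had 13.13, 13.00, 13.37 and 12.98 in topotecan/D5W rats, 13.68, 13.69, 13.59 and 13.79 in NaCl/oxaliplatin rats and 13.32, 12.99, 13.23 and 13.08 in topotecan/oxaliplatin rats, against 13.62, 13.73, 13.44 and 13.63 in NaCl/D5W rats. In the other order it had 13.69, 13.44, 13.50 and 13.00 in D5W/topotecan rats, 13.38, 13.49, 13.50 and 13.49 in oxaliplatin/NaCl rats and 13.49, 13.54, 13.38 and 13.35 in oxaliplatin/topotecan rats, against 13.57, 13.52, 13.65 and 13.73 in D5W/NaCl rats. None of the 6 changes passed the test at 1 h, with -0.49 (SE 0.16) in topotecan/D5W and -0.45 (SE 0.16) in topotecan/oxaliplatin (limma adjusted p = 0.0136 and 0.0191), although every rat of these groups lay below every NaCl/D5W rat. The other 4 changes at 1 h ran between -0.21 and 0.08, and topotecan/D5W minus NaCl/oxaliplatin was already -0.57 (SE 0.16, limma adjusted p = 0.00443).

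At 6 h the topotecan groups had separated from those given oxaliplatin alone. Mgst3 had 10.91, 10.63, 10.94 and 11.20 in topotecan/D5W rats, 12.74, 12.67, 13.00 and 13.14 in NaCl/oxaliplatin rats and 11.36, 11.06, 11.05 and 11.12 in topotecan/oxaliplatin rats, against 13.63, 13.77, 13.44 and 13.68 in NaCl/D5W rats. The second fit held 11.22, 11.30, 11.14 and 11.11 in D5W/topotecan rats, 12.39, 12.38 and 12.74 in oxaliplatin/NaCl rats and 10.96, 10.81, 10.78 and 10.65 in oxaliplatin/topotecan rats, against 13.74, 13.71, 13.32 and 13.66 in D5W/NaCl rats. All treated rats were below all vehicle rats, and the oxaliplatin-alone rats stood between the topotecan rats and the vehicle rats with no overlap on either side. The log2 change was -2.71 (SE 0.16) in topotecan/D5W, -2.42 (SE 0.12) in D5W/topotecan, -2.81 (SE 0.12) in oxaliplatin/topotecan and -2.49 (SE 0.16) in topotecan/oxaliplatin, a fall of 5.34 to 7.0 times. It was -1.11 (SE 0.13) in oxaliplatin/NaCl and -0.75 (SE 0.16) in NaCl/oxaliplatin, a fall of 2.15 and 1.68 times. The difference between drugs at 6 h was -1.96 (SE 0.16, limma adjusted p = 2.21e-11) for topotecan/D5W minus NaCl/oxaliplatin and -1.31 (SE 0.13, limma adjusted p = 2.58e-09) for D5W/topotecan minus oxaliplatin/NaCl. In the first of these pairs topotecan shares code columns with its vehicle and oxaliplatin does not, and in the second the reverse holds.

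At 24 h oxaliplatin alone had the lower means. Mgst3 had 11.29, 12.33 and 10.90 in topotecan/D5W rats, 10.32, 10.68, 10.68 and 10.78 in NaCl/oxaliplatin rats and 10.72, 10.56, 10.91 and 10.96 in topotecan/oxaliplatin rats, against 13.67, 13.67, 13.72 and 13.57 in NaCl/D5W rats. The rats of the second fit had 10.82, 10.95, 11.41 and 11.24 in D5W/topotecan rats, 10.70, 10.81, 10.59 and 10.84 in oxaliplatin/NaCl rats and 10.39, 10.43, 10.49 and 10.22 in oxaliplatin/topotecan rats, against 13.49, 13.78 and 13.65 in D5W/NaCl rats. The log2 change was -3.04 (SE 0.16) in NaCl/oxaliplatin, -2.90 (SE 0.13) in oxaliplatin/NaCl, -3.25 (SE 0.13) in oxaliplatin/topotecan and -2.87 (SE 0.16) in topotecan/oxaliplatin, a fall of 7.29 to 9.54 times, and -2.14 (SE 0.18) in topotecan/D5W and -2.53 (SE 0.13) in D5W/topotecan, a fall of 4.42 and 5.77 times (limma adjusted p 1.52e-21 to 1.72e-12). Topotecan/D5W minus NaCl/oxaliplatin was now 0.89 (SE 0.18, limma adjusted p = 0.000175). D5W/topotecan minus oxaliplatin/NaCl was 0.37 (SE 0.12, limma adjusted p = 0.0243), in the same direction and not past the threshold. One topotecan/D5W rat at 12.33 lay above the other 2 of its group at 11.29 and 10.90. Mgst2, a close relative, fell at 6 h in topotecan/D5W and both combinations by 0.47 to 0.74, and at 24 h in oxaliplatin/topotecan by 0.51. Mgst1 was called only in NaCl/oxaliplatin at 24 h, at 0.28.

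**Figure D2:**
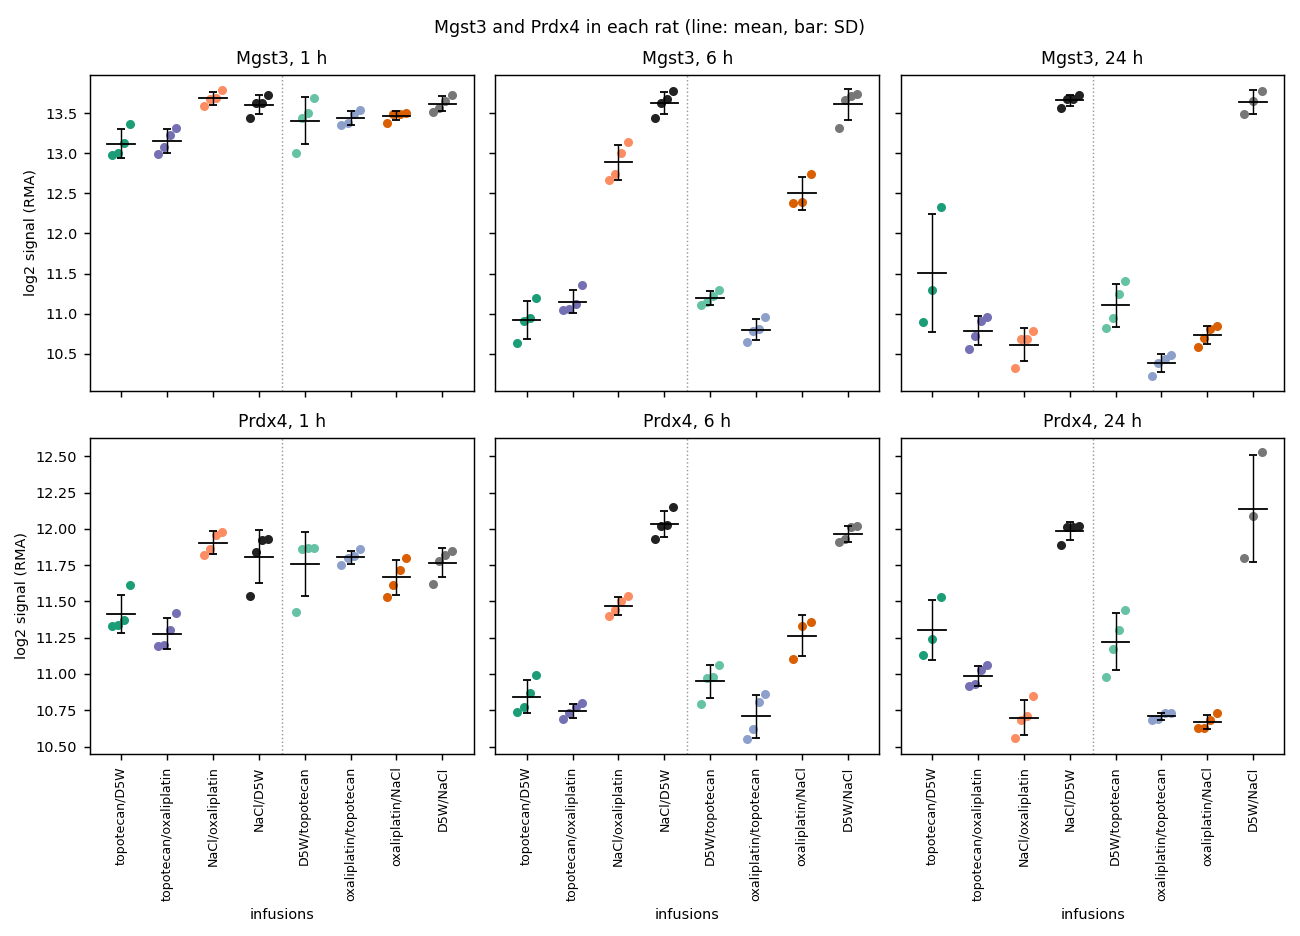
Log2 signal of Mgst3 (top) and Prdx4 (bottom) in each rat at 1, 6 and 24 h, with treated groups left of the vehicle group of their order, a line for the mean and a bar for the SD. At 6 h the Mgst3 points of the topotecan groups lie at 10.63 to 11.36 and those of oxaliplatin alone at 12.38 to 13.14, and at 24 h those of oxaliplatin alone lie at 10.32 to 10.84.

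Of the peroxiredoxins, Prdx4, the form of the endoplasmic reticulum, moved with a similar timing. At 1 h Prdx4 had 11.37, 11.34, 11.61 and 11.33 in topotecan/D5W rats, 11.86, 11.98, 11.82 and 11.96 in NaCl/oxaliplatin rats and 11.30, 11.20, 11.42 and 11.19 in topotecan/oxaliplatin rats, against 11.93, 11.92, 11.54 and 11.84 in NaCl/D5W rats. Signals were lower with topotecan first, at -0.39 in topotecan/D5W and -0.53 in topotecan/oxaliplatin (SE 0.08 each, limma adjusted p = 0.000135 and 9.43e-07), though 1 topotecan/D5W rat (11.61) overlapped the lowest NaCl/D5W rat (11.54). With topotecan second Prdx4 was not called, at 11.86, 11.87, 11.87 and 11.43 in D5W/topotecan rats and 11.86, 11.80, 11.75 and 11.81 in oxaliplatin/topotecan rats, against 11.62, 11.82, 11.85 and 11.78 in D5W/NaCl rats. The difference between the 2 orders was -0.57 (SE 0.13, limma adjusted p = 0.00142) for the combination and -0.38 (SE 0.13, limma adjusted p = 0.032) for topotecan alone, which did not pass. When topotecan came first it had also been infused earlier before sampling than when it came second.

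At 6 h Prdx4 had 10.99, 10.74, 10.77 and 10.87 in topotecan/D5W rats, 11.54, 11.40, 11.44 and 11.50 in NaCl/oxaliplatin rats and 10.73, 10.69, 10.77 and 10.80 in topotecan/oxaliplatin rats, against 12.03, 11.93, 12.02 and 12.15 in NaCl/D5W rats. The second order gave 10.97, 11.06, 10.79 and 10.98 in D5W/topotecan rats, 11.10, 11.33 and 11.36 in oxaliplatin/NaCl rats and 10.86, 10.81, 10.62 and 10.55 in oxaliplatin/topotecan rats, against 12.01, 11.93, 11.91 and 12.02 in D5W/NaCl rats. Treated and vehicle rats did not overlap in any comparison, and the log2 change was between -0.56 (SE 0.08) in NaCl/oxaliplatin and -1.28 (SE 0.08) in topotecan/oxaliplatin (limma adjusted p 1.48e-15 to 3.09e-05). At 24 h the signals were 11.24, 11.53 and 11.13 in topotecan/D5W rats, 10.85, 10.56, 10.71 and 10.68 in NaCl/oxaliplatin rats and 10.92, 10.93, 11.06 and 11.03 in topotecan/oxaliplatin rats, against 12.01, 12.02, 12.01 and 11.89 in NaCl/D5W rats. Those of the second order were 10.98, 11.17, 11.44 and 11.30 in D5W/topotecan rats, 10.63, 10.63, 10.73 and 10.68 in oxaliplatin/NaCl rats and 10.68, 10.73, 10.73 and 10.69 in oxaliplatin/topotecan rats, against 11.80, 12.09 and 12.53 in D5W/NaCl rats. The change at 24 h was -1.47 (SE 0.12) in oxaliplatin/NaCl, -1.28 (SE 0.08) in NaCl/oxaliplatin and -1.43 (SE 0.12) in oxaliplatin/topotecan, and it was -0.68 (SE 0.09) in topotecan/D5W and -0.92 (SE 0.12) in D5W/topotecan. In topotecan/oxaliplatin Prdx4 fell by 1.00 (SE 0.08). Topotecan minus oxaliplatin was -0.63 (SE 0.08, limma adjusted p = 2.39e-07) at 6 h and 0.60 (SE 0.09, limma adjusted p = 2.41e-06) at 24 h in the first fit. In the second fit it was -0.31 (SE 0.12, limma adjusted p = 0.0857) at 6 h and 0.56 (SE 0.11, limma adjusted p = 0.000435) at 24 h.

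Prdx3, the mitochondrial peroxiredoxin, fell in 5 treatments at 6 h by 0.35 to 0.48 and in all 6 at 24 h. It had 11.28, 11.67 and 11.19 in topotecan/D5W rats, 11.05, 11.17, 11.27 and 11.02 in NaCl/oxaliplatin rats and 11.04, 11.00, 11.08 and 11.25 in topotecan/oxaliplatin rats, against 12.38, 12.43, 12.44 and 12.25 in NaCl/D5W rats at 24 h. In the other order Prdx3 had 11.14, 11.25, 11.82 and 11.54 in D5W/topotecan rats, 11.33, 11.20, 11.25 and 11.27 in oxaliplatin/NaCl rats and 11.01, 11.05, 11.09 and 10.95 in oxaliplatin/topotecan rats, against 12.26, 12.48 and 12.39 in D5W/NaCl rats. No treated rat came up to its vehicle group, and the change was between -0.94 (SE 0.10) in D5W/topotecan and -1.35 (SE 0.10) in oxaliplatin/topotecan (limma adjusted p 6.78e-16 to 1.44e-09). Prdx2, the abundant cytosolic form of red cells, was called in no treatment at 1 or 6 h and fell at 24 h by 0.43 to 0.94. Prdx6 fell at 24 h in both combinations only, by 0.30 and 0.58, and each combination was below each of its single agents (differences of -0.30 to -0.40, limma adjusted p 0.00101 to 0.00979). Prdx5 rose at 6 h in the 4 treatments with topotecan by 0.42 to 0.73 and was called at no other time.

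Erythroid markers fell in the same samples. At 24 h 14 of 15 fell in every treatment, where 17.3% to 35.2% of all probe sets fell. The remaining 1 rose in oxaliplatin/NaCl, NaCl/oxaliplatin and oxaliplatin/topotecan. The mean of the 15 ran between 9.44 and 10.75 in treated rats, against 11.77 to 12.27 in vehicle rats. At 6 h 3 to 8 of 15 had fallen, where 7.25% to 27.6% of all probe sets fell, and 1 had risen in topotecan/D5W and both combinations. List medians at 6 h were -0.07 in NaCl/oxaliplatin to -0.60 in topotecan/D5W, while Mgst3 stood at -0.75 in NaCl/oxaliplatin and -2.71 in topotecan/D5W. The part of fewer erythroid cells in the falls of Gclc, Gclm, Gsta4, Mgst3, Glrx5, Prdx2, Prdx3 and Prdx4 was not tested. Macrophage markers averaged 11.08 to 11.81 in treated rats and 10.30 to 10.56 in vehicle rats at 24 h, with 10 to 12 of 12 higher in each treatment.

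Srxn1, sulfiredoxin, which repairs overoxidized peroxiredoxins and is a classic NRF2 target, rose early, and a later fall was called after topotecan alone only. The values given are from 1 of the 2 probe sets of Srxn1. At 1 h it had 9.97, 9.78, 10.02 and 9.57 in topotecan/D5W rats, 8.94, 9.46, 9.21 and 9.50 in NaCl/oxaliplatin rats and 10.12, 9.68, 9.87 and 9.84 in topotecan/oxaliplatin rats, against 9.21, 8.97, 8.99 and 8.92 in NaCl/D5W rats. The second order gave 9.64, 9.92, 9.65 and 9.54 in D5W/topotecan rats, 9.40, 9.45, 9.47 and 9.59 in oxaliplatin/NaCl rats and 10.24, 10.06, 10.24 and 10.28 in oxaliplatin/topotecan rats, against 8.75, 8.64, 8.91 and 9.32 in D5W/NaCl rats. Treated rats stood above their vehicle group in all but NaCl/oxaliplatin. The change at 1 h was 0.82 (SE 0.13) in topotecan/D5W, 0.78 (SE 0.15) in D5W/topotecan, 1.30 (SE 0.15) in oxaliplatin/topotecan and 0.86 (SE 0.13) in topotecan/oxaliplatin, and oxaliplatin alone was not called (0.57 in oxaliplatin/NaCl, limma adjusted p = 0.0275, and 0.25 in NaCl/oxaliplatin). At 6 h Srxn1 was still higher in both combinations (1.02 in topotecan/oxaliplatin and 1.19 in oxaliplatin/topotecan) and in D5W/topotecan (0.56). At 24 h it was lower in topotecan/D5W (-0.46) and D5W/topotecan (-0.58) and not called in the others.

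In the thioredoxin system, Txnip, which binds and inhibits thioredoxin, rose in the 4 treatments with topotecan at 1 h (0.46 to 0.79) and 6 h (0.65 to 0.78) and in 5 treatments at 24 h (0.48 to 0.77). After oxaliplatin alone it was 0.40 in oxaliplatin/NaCl and 0.04 in NaCl/oxaliplatin at 1 h, neither called. Txnrd1, the cytosolic thioredoxin reductase, rose at 6 h. It had 10.53, 10.50, 10.40 and 10.54 in topotecan/D5W rats, 10.35, 10.45, 10.35 and 10.53 in NaCl/oxaliplatin rats and 10.53, 10.63, 10.71 and 10.73 in topotecan/oxaliplatin rats, against 9.82, 9.92, 9.93 and 10.20 in NaCl/D5W rats. The rats of the other order had 10.52, 10.61, 10.57 and 10.45 in D5W/topotecan rats, 10.41, 10.62 and 10.37 in oxaliplatin/NaCl rats and 10.72, 10.86, 10.94 and 11.11 in oxaliplatin/topotecan rats, against 9.83, 10.06, 10.26 and 10.17 in D5W/NaCl rats. Every treated rat lay above its vehicle group, and the change passed the test in topotecan/D5W, NaCl/oxaliplatin and both combinations (0.46 to 0.83). A second Txnrd1 probe set passed at 6 h in the 2 combinations only (0.71 in topotecan/oxaliplatin and 0.84 in oxaliplatin/topotecan, with 0.53 in topotecan/D5W and 0.57 in NaCl/oxaliplatin), and neither probe set was called at 24 h. Txnrd2, the mitochondrial reductase, fell in 5 treatments at 6 h by 0.40 to 0.55 and in all 6 at 24 h by 0.43 to 0.76. Txnrd2 was also called lower at 1 h in topotecan/D5W and topotecan/oxaliplatin. Txn2, mitochondrial thioredoxin, fell at 6 h in topotecan/D5W, D5W/topotecan and topotecan/oxaliplatin by 0.34 to 0.41 and at 24 h in NaCl/oxaliplatin and both combinations by 0.29 to 0.35.

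**Figure D3:**
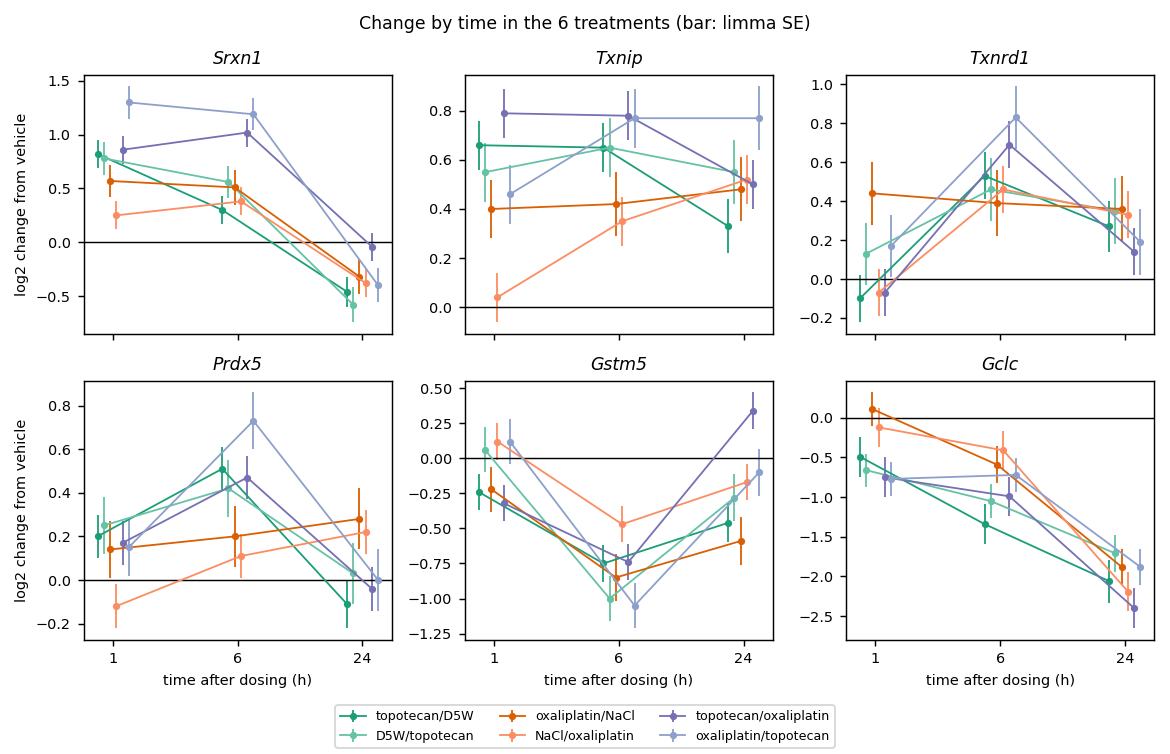
Log2 change of Srxn1, Txnip, Txnrd1, Prdx5, Gstm5 and Gclc (1 panel each) against time after dosing, with 1 line per treatment and bars for the limma SE. Srxn1 was called higher at 1 h and Prdx5 at 6 h in the 4 treatments with topotecan. At 6 h Txnrd1 was called higher in topotecan/D5W, NaCl/oxaliplatin and both combinations, and Srxn1 in D5W/topotecan and both combinations. Gstm5 dips at 6 h to -1.05 in oxaliplatin/topotecan, and Gclc is lowest at 24 h.

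Of the glutaredoxins, small enzymes that use glutathione to reduce proteins, Glrx2 of the mitochondria and nucleus fell in all 6 treatments at 6 h by 0.36 to 0.60 and in 5 at 24 h by 0.54 to 0.94. Glrx2 was also called lower at 1 h in topotecan/D5W and topotecan/oxaliplatin. Glrx5, which serves iron-sulfur cluster assembly and haem synthesis, was called at 24 h only, where it fell by 0.44 to 0.99. Glrx3 fell by 0.46 and 0.62 at 1 h in topotecan/D5W and topotecan/oxaliplatin, by 0.34 and 0.35 at 6 h in topotecan/D5W and D5W/topotecan, and by 0.37 to 0.57 at 24 h in oxaliplatin/NaCl, NaCl/oxaliplatin and oxaliplatin/topotecan. Glrx rose at 6 h in both combinations by 0.36 and 0.39. Of the thioredoxin domain proteins, Txndc5, a disulfide isomerase of the endoplasmic reticulum, fell at 1 h in topotecan/D5W and topotecan/oxaliplatin by 0.79 and 0.63 and rose at 24 h in 4 treatments by 0.44 to 0.63. Txndc17 and Txnl1 fell at 24 h in the 4 treatments with oxaliplatin by 0.30 to 0.49. At 1 h Txndc17 was called higher in D5W/topotecan and oxaliplatin/topotecan, and Txnl1 lower in topotecan/D5W and topotecan/oxaliplatin. Txndc12 rose at 24 h in 3 treatments by 0.34 to 0.50, Txndc11 fell at 1 h in 3 by 0.33 to 0.74, Txndc9 fell in NaCl/oxaliplatin at 24 h by 0.27, and Txnl4a fell in 3 at 24 h by 0.26 to 0.52. Ggta1 fell at 1 h after topotecan given second, by 0.85 in D5W/topotecan and 1.00 in oxaliplatin/topotecan, by 0.34 to 0.46 at 6 h in topotecan/D5W and both combinations, and by 0.30 to 0.59 at 24 h in the 4 treatments with topotecan.

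Each combination was set against its single agents at 24 h. Topotecan/oxaliplatin differed from topotecan/D5W in 13 members (7 higher, 6 lower, where 29.6% of all probe sets differed) and from NaCl/oxaliplatin in 13 (6 higher, 7 lower, with 15.9% of all). Oxaliplatin/topotecan differed from oxaliplatin/NaCl in 2 members, Prdx6 and Ggta1, both lower (5.93% of all), and from D5W/topotecan in 10 (1 higher, 9 lower, with 16.8% of all). Gpx7, Gpx8, Gsta1, Gstm5 and Gstt1 were higher in topotecan/oxaliplatin than after either drug alone. For Gpx8 the differences were 0.83 (SE 0.16, limma adjusted p = 7.39e-05) from topotecan/D5W and 0.97 (SE 0.15, limma adjusted p = 5.32e-06) from NaCl/oxaliplatin. For Gsta1 they were 1.22 (SE 0.18, limma adjusted p = 9.63e-07) and 0.72 (SE 0.16, limma adjusted p = 0.000949). In oxaliplatin/topotecan these genes did not differ past the threshold from either single agent, with Gpx8 at 0.63 (SE 0.17, limma adjusted p = 0.0139) from oxaliplatin/NaCl. Mgst3 was lower in both combinations than after topotecan alone, with differences of -0.72 (SE 0.18, limma adjusted p = 0.00116) for topotecan/oxaliplatin and -0.72 (SE 0.12, limma adjusted p = 1.18e-05) for oxaliplatin/topotecan. Against oxaliplatin alone Mgst3 was called in neither combination. Gclm was lower in topotecan/oxaliplatin than in NaCl/oxaliplatin, with a difference of -0.35 (SE 0.10, limma adjusted p = 0.00906), and was not called against topotecan/D5W. Gsta4, Gclc and Prdx3 in topotecan/oxaliplatin were called against neither single agent.

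**Figure D4:**
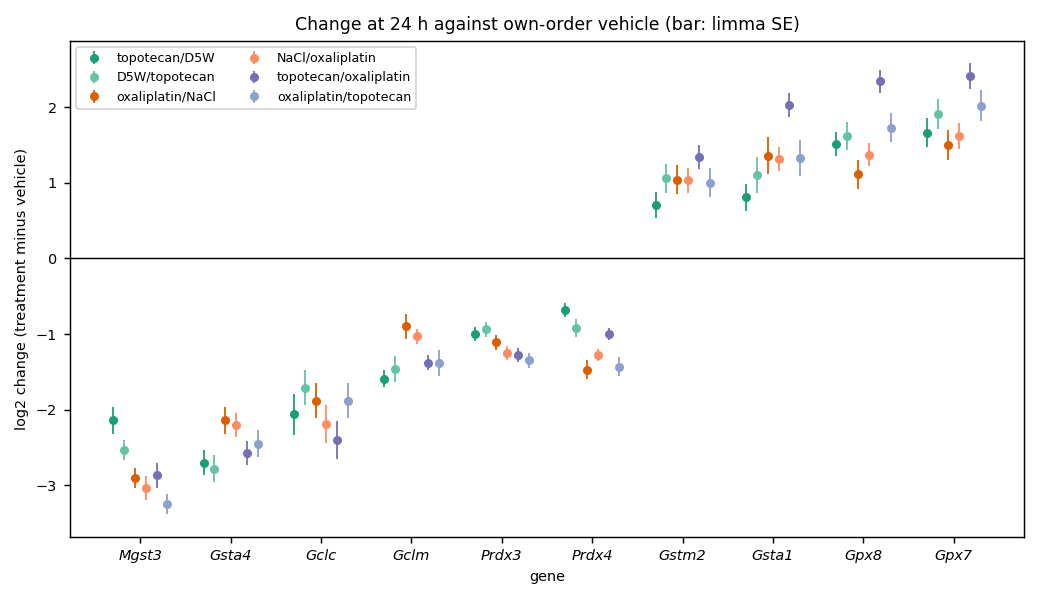
Log2 change at 24 h against own-order vehicle of the 10 members of largest mean change (horizontal axis, lowest mean left), with 1 coloured point per treatment and bars for the limma SE. Mgst3 lies at -3.25 to -2.14 and Gsta4 at -2.78 to -2.14, and the topotecan/oxaliplatin points of Gpx7 (2.41), Gpx8 (2.34) and Gsta1 (2.03) stand above the other treatments.

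Topotecan was compared with oxaliplatin, each given alone, at every time. Topotecan/D5W and NaCl/oxaliplatin differed in 12 members at 1 h (32.8% of all probe sets), 5 at 6 h (14%) and 7 at 24 h (17.9%). D5W/topotecan and oxaliplatin/NaCl differed in 2 (19% of all), 1 (4.72%) and 5 (8.21%). At 24 h Mgst3, Prdx4, Glrx2, Glrx3, Txnl1 and Txnl4a were higher and Gclm lower in topotecan/D5W than in NaCl/oxaliplatin. Prdx4 was higher and Gclm, Glrx5, Gsta4 and Prdx2 lower in D5W/topotecan than in oxaliplatin/NaCl. For Prdx2 the difference was -0.51 (SE 0.11, limma adjusted p = 0.00113) and for Glrx5 -0.54 (SE 0.11, limma adjusted p = 0.00067). Erythroid markers averaged 9.57 to 10.12 in D5W/topotecan rats and 10.26 to 10.56 in oxaliplatin/NaCl rats at 24 h, and the part of this gap in the difference was not tested.

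The order of infusion gave called differences in members at 1 h and none at 6 or 24 h. Against their own vehicles, topotecan/D5W and D5W/topotecan differed in 4 members (12.2% of all probe sets) and the 2 combinations in 4 (9.85%), with 0 for oxaliplatin alone (0% of all, and 4 members at an unadjusted p under 0.05). Glrx3 was the lower with topotecan first in both comparisons, with differences of -0.64 (SE 0.14, limma adjusted p = 0.000282) and -0.61 (SE 0.14, limma adjusted p = 0.000673), and Ggta1 the higher. Gsto1 and Txndc5 differed between the orders of topotecan alone, and Prdx4 and Txndc17 between those of the combination. At 6 and 24 h limma called 0 members in any order comparison (0% of all probe sets, and 0.00798% for the combination at 6 h), with 0 to 1 members at an unadjusted p under 0.05 in each, save 9 for the combination at 24 h. The vehicle groups NaCl/D5W and D5W/NaCl did not differ in any member at an adjusted p under 0.01 (4, 1 and 5 at an unadjusted p under 0.05 at 1, 6 and 24 h).

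Neighbouring pathways were counted over lists of genes chosen with earlier results of these data known. At 24 h 16.1% to 25.9% of all probe sets rose in a treatment and 17.3% to 35.2% fell, and at 6 h 3.78% to 17% rose and 7.25% to 27.6% fell. Of 12 genes of NADPH supply, 1 to 4 rose and 0 to 3 fell in each treatment at 24 h, and at 6 h 0 rose and 0 to 4 fell. Nadk2, which makes mitochondrial NADP, fell in 5 treatments at 24 h, down to -0.86 in topotecan/oxaliplatin. Of 20 other antioxidant enzymes, 3 to 9 rose and 3 to 5 fell at 24 h, and 3 to 6 rose and 1 to 8 fell at 6 h. Hmox1, haem oxygenase and an NRF2 and BACH1 target, rose in all 6 treatments at 6 h, between 1.59 (SE 0.14) in NaCl/oxaliplatin and 2.12 (SE 0.14) in topotecan/D5W, and Nqo1, a quinone reductase and NRF2 target, by 0.48 in D5W/topotecan to 0.95 in oxaliplatin/topotecan. Gclm, commonly placed with them as an NRF2 target, was called in none of these at 6 h. The part of NRF2 in the changes of these genes was not tested. Sod1 fell in all 6 at 6 h (-0.62 to -0.92) and at 24 h (-0.30 to -0.93), and Blvrb, the biliverdin reductase of red cells, and Cat, catalase, in all 6 at 24 h (-1.29 to -2.18 and -0.46 to -0.88). Sesn2, a sestrin induced by p53, rose in 5 treatments at 1 h and in all 6 at 6 and 24 h (0.39 to 1.08 at 24 h).

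Of 17 genes of cysteine supply and glutathione transport, 0 to 4 rose and 5 to 9 fell at 24 h. Chac2, which degrades glutathione, fell in all 6 treatments at 24 h (-1.53 in NaCl/oxaliplatin to -2.56 in oxaliplatin/topotecan), as did Glo1, the glyoxalase that uses glutathione (-0.68 in topotecan/D5W to -1.35 in oxaliplatin/NaCl), and the amino acid carrier Slc7a5 (-0.61 in oxaliplatin/NaCl to -1.21 in topotecan/D5W). Chac1, the stress-induced enzyme that degrades glutathione, rose at 1 h in the 4 treatments with topotecan, by up to 2.74 (SE 0.39) in oxaliplatin/topotecan. Of 9 NRF2 and BACH1 regulators, 0 to 4 rose and 1 to 3 fell at 24 h. Nfe2l2, which encodes NRF2 itself, was called once in the 18 comparisons, at 0.37 in topotecan/oxaliplatin at 6 h, while Sqstm1, which frees NRF2 from its inhibitor, rose in all 6 at 6 h (0.73 to 1.17) and Mafk, a small Maf partner, fell in all 6 at 24 h (-0.47 to -0.80).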

How the data were processed

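Bone marrow RNA of 93 rats was hybridized to Affymetrix rat genome arrays. The deposited values are log2 signals that the authors made with robust multichip averaging (background correction, quantile normalization and median polish) and then filtered by the agreement of the probes in a probe set, leaving out 1 outlier array. Of 12560 probe sets, 28 controls were removed, and 12532 were tested, of which 10002 had 1 symbol, 292 several and 2238 none. limma (3.58.1, in R 4.3.3) was fitted as in the study's methods, in 2 fits by order of the vehicles, with Benjamini-Hochberg adjustment within each comparison and a threshold of 0.01. Contrasts between orders and between vehicles used all groups in 1 fit. Arrays have no read depth, and the number of rats limits the precision. The labels give each array an animal of its own. Per-rat values are given for the 10 members of largest mean absolute change at 24 h among those called in at least 4 treatments in 1 direction, Mgst3 and Prdx4 included, and for 3 further members with early changes, which were chosen after their values were seen. The members and all gene lists were chosen with earlier results of these data known. Alternatives covered scaling, filters, samples in the fit, probe set choice, sample code column, fold and single rats. The fit was tested on simulated data.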

Additional observations from a re-analysis of the deposited data

Results flagged for a closer look

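For the members named in full, 74 sets of 4 values were examined, each of 1 gene in 1 group. In 5 sets a rat stood far from the other 3, where chance alone gives about 1 in 20 per set. The same rats recur across genes, so the sets are not independent. Gsta4 stood at 7.86 in 1 D5W/topotecan rat at 24 h, with the others at 8.54 to 8.66, and at 8.64 in 1 NaCl/oxaliplatin rat at 24 h, with the others at 9.12 to 9.19. Gclm stood at 9.84 in 1 D5W/topotecan rat at 24 h, with the others at 9.12 to 9.24, and at 9.70 in 1 oxaliplatin/topotecan rat, with the others at 9.30 to 9.36. Prdx4 stood at 11.89 in 1 NaCl/D5W rat at 24 h, with the others at 12.01 to 12.02.

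The order of infusion gave 8 called differences of the log2 change at 1 h. With topotecan first, Ggta1 was higher by 0.80 for topotecan alone and 0.79 for the combination, and Glrx3 differed by -0.64 for topotecan alone and -0.61 for the combination. For topotecan alone Gsto1 differed by -0.71 and Txndc5 by -0.75. For the combination Prdx4 differed by -0.57 and Txndc17 by -0.47. For topotecan alone, order and sample code column cannot be told apart, while the 2 combinations had the same code columns at 1 h, as had their vehicles.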

How the results depend on the processing

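No result reversed under the alternatives run. With a fold above 2 asked in addition, the called members at 1 h were 0 in topotecan/D5W, 0 in D5W/topotecan, 0 in topotecan/oxaliplatin and 1 in oxaliplatin/topotecan. At 6 h they were 4 in topotecan/D5W, 3 in D5W/topotecan, 1 in oxaliplatin/NaCl, 0 in NaCl/oxaliplatin, 5 in topotecan/oxaliplatin and 5 in oxaliplatin/topotecan. At 24 h they were 6 in topotecan/D5W, 8 in D5W/topotecan, 9 in oxaliplatin/NaCl, 11 in NaCl/oxaliplatin, 10 in topotecan/oxaliplatin and 12 in oxaliplatin/topotecan. For oxaliplatin/NaCl at 1 h, 1 member was called, against 0 as reported, with all 8 groups in 1 fit and with the code column as a random or a fixed block, and single rats left out gave 0 to 1 (1 without D5W/NaCl animal 20). For NaCl/oxaliplatin at 6 h the 10 calls were 5 with the random block and 5 to 10 with single rats left out, with 5 without NaCl/D5W animal 3 or animal 4 and 6 without NaCl/oxaliplatin animal 76. The cause was not tested. Gstm2 in topotecan/D5W at 24 h lost its call without animal 29 (0.45, limma adjusted p = 0.038) and in a fit of that time alone (0.71), and its changes ran between 0.45 and 0.90 over the rats left out. All other counts stayed within 1.5 times, and of the 74 single-gene changes recomputed (the called changes of the members named in full at 24 h, and of Mgst3 and Prdx4 at every time), all others kept direction and call, under these settings, quantile normalization, the mean of all probe sets of a gene, and, chosen after seeing the data, without the 8 arrays high in muscle markers. With the dimmest 25% of probe sets left out, 62 of the 74 changes could be tested, since Gpx7 and Gstm2 had been removed. The fixed block could be fitted in 8 comparisons (45 of the changes). The changes of other members were not recomputed one by one. No paired analysis was possible because every animal number belongs to 1 rat and 1 group. Transferase probe sets may read close paralogs.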
